A study of Mus musculus with 6 samples.

Results

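The antioxidant and glutathione genes examined here are 10 genes chosen by name, because oxidative stress has been proposed to contribute to the loss of parvalbumin (PV) after ketamine. They are Gclc, Gclm and Gss, which make glutathione, Gsr, which regenerates it, the glutathione peroxidases Gpx1 and Gpx4, the superoxide dismutases Sod1 and Sod2, catalase (Cat) and Nfe2l2, which encodes the transcription factor NRF2. All 10 were found among the 37620 genes listed, 8 by the symbol in the table and Gpx1 and Gpx4 by Ensembl identifier, since their symbol was left blank. RNA was sequenced from the prelimbic cortex (PLc), part of the medial prefrontal cortex, of C57Bl/6 mice aged 9 weeks. The 3 ketamine mice (numbers 3, 5 and 9) received 30 mg/kg of ketamine, an NMDA receptor antagonist, by intraperitoneal injection once a day for 5 days, and the 3 saline mice (numbers 1, 6 and 10) received saline vehicle on the same schedule. Tissue was taken 2 days after the injections ended, and each mouse gave its own library. Values are normalized counts, that is, read counts per gene after division by the size factor of their library.

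Glutathione is built from glutamate, cysteine and glycine. Glutamate-cysteine ligase, a catalytic subunit (Gclc) with a modifier subunit (Gclm), joins glutamate to cysteine in the rate-limiting step, and glutathione synthetase (Gss) adds glycine. Superoxide dismutases turn superoxide into hydrogen peroxide, which catalase and the glutathione peroxidases remove, and glutathione reductase (Gsr) uses NADPH to return oxidised glutathione to its reduced form. NRF2, held back by KEAP1 in unstressed cells, binds antioxidant response elements in the promoters of many of these genes. In the cortex, astrocytes supply neurons with precursors of glutathione, and fast-spiking PV interneurons are known for a high energy demand.

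The promoters of the members are relevant because NRF2 is itself a member. The core of the antioxidant response element, TGACNNNGC, was searched on both strands in RefSeq promoter windows of 300 bases, from 250 bases before to 50 bases after each start (table on GRCm38.p6). Each member window was found exactly once in the same chromosome of mm9, the build of the reads, and coordinates are given on mm9. The table held 8 of the 10 members, in 11 windows, and not Gclc or Gsr. The motif was present in 3 of the 11 member windows, those of Nfe2l2, Gclm and Sod1, and in 12.4% of all 32851 windows. These 3 are shown because they hold the motif, as the 250 bases before the start, 5′ to 3′ on the strand of the gene, with the motif in capitals. The stretches lie at chr2:75542721-75542970 on the minus strand for Nfe2l2, at chr3:121948225-121948474 on the plus strand for Gclm and at chr16:90220757-90221006 on the plus strand for Sod1. No other motif was searched.
Nfe2l2: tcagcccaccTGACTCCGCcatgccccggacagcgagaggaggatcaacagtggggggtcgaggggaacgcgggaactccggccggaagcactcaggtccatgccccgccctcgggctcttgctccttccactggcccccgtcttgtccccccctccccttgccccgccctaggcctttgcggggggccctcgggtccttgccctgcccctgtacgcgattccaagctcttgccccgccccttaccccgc
Gclm: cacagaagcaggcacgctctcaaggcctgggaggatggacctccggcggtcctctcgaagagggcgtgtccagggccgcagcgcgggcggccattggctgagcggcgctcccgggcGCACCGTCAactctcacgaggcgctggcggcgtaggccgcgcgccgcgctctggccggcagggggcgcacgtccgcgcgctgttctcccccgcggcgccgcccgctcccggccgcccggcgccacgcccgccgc
Sod1: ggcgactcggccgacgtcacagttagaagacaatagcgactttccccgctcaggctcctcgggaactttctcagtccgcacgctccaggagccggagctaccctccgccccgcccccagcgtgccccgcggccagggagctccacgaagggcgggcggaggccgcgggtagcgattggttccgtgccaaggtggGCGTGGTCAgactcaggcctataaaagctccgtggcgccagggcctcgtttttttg
The match in Nfe2l2 reads TGACTCCGC and begins at position -240 from the start. In Gclm and Sod1 the match lies on the opposite strand, so that it reads GCACCGTCA from position -134 and GCGTGGTCA from position -56. A match of these letters is a description of the window and not of binding.

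Recovered read totals ran from 26273436 to 32643726 per library, and the members took between 327 and 8522 reads each in a library. Cortical excitatory neuron markers were present in all 6 libraries, 10 of 10 detected, with summed normalized counts of 53870 to 74310 in saline mice and 35710 to 58480 in ketamine mice. Several libraries stood apart in the markers of other cells or regions. The 10 oligodendrocyte markers summed to 393300 in saline mouse 10, which was 2.35 times the next library, and to between 45860 and 167300 in the other 5. Of 8 erythroid markers 6 were found and 4 were detected in every library, and the 6 summed to 6532 in ketamine mouse 9, which was 4.55 times the next library, against 694 to 1437 in the other 5. The 10 striatal markers summed to 58170 and 29050 in ketamine mice 3 and 5 and to between 6456 and 8366 in the other 4. The 10 olfactory bulb markers summed to 7026, 3880 and 22370 in ketamine mice 3, 5 and 9 and to 1239 to 2804 in saline mice. The 10 astrocyte markers summed to 52310 to 76700 in saline mice and 63950 to 70930 in ketamine mice, and the 10 PV interneuron markers to 14490 to 18600 and 9722 to 19020. Gene by gene, 8 of the 10 PV markers had a negative log2 fold change, ketamine minus saline, with a median of -0.36. The 10 cortical excitatory neuron markers also had 8 negative, with a median of -0.52, so the lower values were not particular to the PV list. Over all genes tested, 53% were negative. A gene of the PV list is also in the striatal list, so the PV sums of ketamine mice 3 and 5 include it. Whether these differences in tissue contributed to the values of the antioxidant genes was not tested. In bulk tissue, fewer cells of a type and less RNA per cell cannot be told apart.

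No difference between ketamine and saline mice was detected for any of the 10 antioxidant and glutathione genes. By limma on log2(normalized count + 1), with p-values adjusted over all 16127 genes tested, 0 of 10 were called at an adjusted p under 0.05, and the background over all genes was likewise 0%. Without adjustment, 0 of 10 members had a p under 0.05, against 5.81% of all genes tested. On the recovered reads, edgeR called 0 of 10 members (background 0%) and DESeq2 called 0 of 10 (background 1.13%). The ketamine and saline values of all 10 members overlapped. Over all genes, 10.3% had groups that did not overlap, so 0 of 10 is near that share.

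The members' differences were small and lay on both sides of 0. Their log2 fold changes, ketamine minus saline, ran from -0.15 for Gss to 0.29 for Nfe2l2, with 7 positive (47% of all genes were) and 3 negative, and a median of 0.054, beside a median of -0.014 over all genes tested. For 8 of the 10 the change was under 0.2 on the log2 scale, as it was for 60.6% of all genes. The 95% interval of the fold lay inside a 2-fold change in either direction for all 10 members, against 71.7% of all genes, and inside 1.5-fold for 7, against 40%. Gss, Gpx1 and Nfe2l2 were the 3 whose interval reached beyond 1.5-fold. With 3 mice against 3, the smallest p of an exact permutation test is 0.1, so a single member could not have passed 0.05 by that test.

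**Figure D1:**
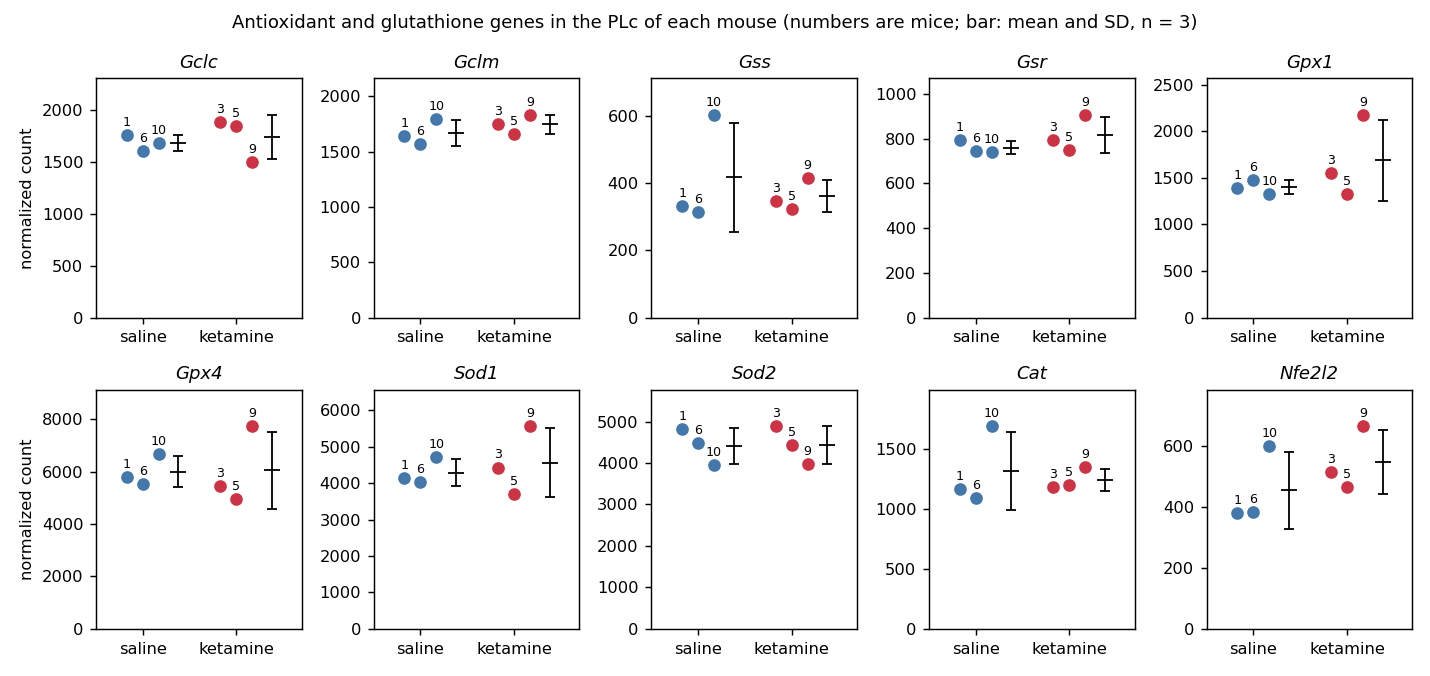
Normalized counts of the 10 members (vertical axes, each starting at 0) in each saline mouse (blue) and ketamine mouse (red), numbered by mouse, with the group mean and SD (n = 3) as a bar beside the points. The groups overlapped in every panel, and ketamine mouse 9 was the highest point in 6 of the 10.

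The subunits of glutamate-cysteine ligase were at like counts in all mice. Gclc (ENSMUSG00000032350, chr9:77602342-77642292, plus strand) had 1763, 1602 and 1685 normalized counts after saline (mice 1, 6 and 10) and 1881, 1844 and 1499 after ketamine (mice 3, 5 and 9). Ketamine mice 3 and 5 were the highest of the 6 and ketamine mouse 9 the lowest, so the ketamine values enclosed the saline values. The means were 1683 ± 80.3 after saline and 1742 ± 211 after ketamine (± SD, n = 3). The log2 fold change was 0.043 (SE 0.136, 95% interval -0.28 to 0.36, limma adjusted p = 0.999). Its sign rested on ketamine mice 3 and 5, since it was -0.016 without mouse 3 and -0.002 without mouse 5.

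Gclm (ENSMUSG00000028124, chr3:121948475-121972902, plus strand), the modifier subunit, had 1644, 1570.2 and 1795 normalized counts after saline and 1750.2, 1660 and 1830.1 after ketamine. These 6 values lay within a factor of 1.17, the narrowest range of the 10 members. The means were 1670 ± 115 and 1747 ± 85.4 (± SD, n = 3), and the log2 fold change was 0.066 (SE 0.12, limma adjusted p = 0.999), with a fold between 0.861 and 1.27 at 95% confidence. It stayed positive, between 0.023 and 0.119, with any 1 mouse left out. Gclm shares 296 exon bases with Gm17494 on the opposite strand, whose mean was 5.5 normalized counts.

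Gss (ENSMUSG00000027610, chr2:155388917-155418546, minus strand), glutathione synthetase, was the member with the widest range, a factor of 1.91 between its highest and lowest library. It had 333.4, 315.6 and 604.0 normalized counts after saline and 347.5, 322.7 and 417.0 after ketamine. Saline mouse 10, the library with the high oligodendrocyte sum, was above all others, and the other 5 lay between 315.6 and 417.0. The means were 417.6 ± 162 and 362.4 ± 48.9 (± SD, n = 3), the log2 fold change was -0.15 (SE 0.269, limma adjusted p = 0.999) and the exact permutation test gave p = 0.9. Without saline mouse 10 the change was 0.15, with the sign reversed. Gss shares 936 exon bases with genes on the opposite strand, mainly Acss2 with a mean of 1556.4 normalized counts. The strand setting of the counting is not given in the sources used here, so reads of Gss and Acss2 over those bases cannot be told apart.

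Gsr (ENSMUSG00000031584, chr8:34762995-34808635, plus strand), which restores reduced glutathione, had 794.1, 746.0 and 740.2 normalized counts after saline and 794.8, 748.8 and 906.4 after ketamine. Apart from ketamine mouse 9 the values fell between 740.2 and 794.8, and the saline mice differed from each other by less for Gsr than for any other member, with a coefficient of variation of 3.89%. The means were 760.1 ± 29.6 and 816.7 ± 81.0 (± SD, n = 3). The log2 fold change was 0.10 (SE 0.131, limma adjusted p = 0.999) and was 0.022 without ketamine mouse 9.

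**Figure D2:**
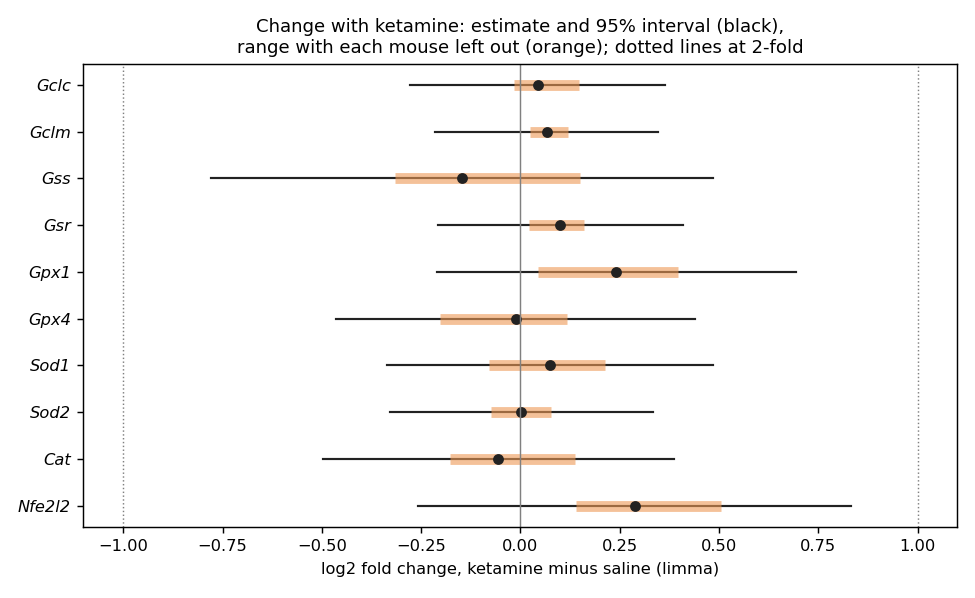
Log2 fold change of each member, ketamine minus saline (horizontal axis), with its 95% interval from limma in black and the range of the estimate when each mouse was left out in turn in orange. All 10 intervals include 0 and lie inside the dotted lines at 2-fold, and the orange ranges of Gclm, Gsr, Gpx1 and Nfe2l2 stay above 0.

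Among the glutathione peroxidases, the largest single value belonged to ketamine mouse 9 for both genes. Gpx1 (ENSMUSG00000063856, chr9:108241607-108242671, plus strand), the cytosolic peroxidase that reduces hydrogen peroxide, had 1387, 1479 and 1329.9 normalized counts after saline and 1556, 1331 and 2175 after ketamine. Ketamine mouse 3 was slightly above the saline mice, ketamine mouse 5 was within them and ketamine mouse 9 was well above them. The means were 1398 ± 75.0 and 1688 ± 437 (± SD, n = 3), a ratio of 1.21. The log2 fold change was 0.24 (SE 0.192, 95% interval -0.21 to 0.69, limma adjusted p = 0.999; exact permutation p = 0.3). Without ketamine mouse 9 the change was 0.043. That library held the highest erythroid sum and also the highest olfactory bulb sum. Gpx1, Cat and Sod1 are known to be abundant in red blood cells. Sod1 was also highest in that library, whereas Cat was highest in saline mouse 10. The part of blood or olfactory bulb RNA in these values was not tested.

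Gpx4 (ENSMUSG00000075706, chr10:79509911-79519184, plus strand), the selenoenzyme that reduces lipid peroxides in membranes and restrains ferroptosis, was the member with the most normalized counts. It had 5779, 5542 and 6671 after saline and 5431, 4966 and 7725 after ketamine. Ketamine mice 3 and 5 were the lowest of the 6 and ketamine mouse 9 the highest. The means were 5997 ± 596 and 6041 ± 1480 (± SD, n = 3), and the log2 fold change was -0.012 (SE 0.192, limma adjusted p = 0.999). It was 0.067, 0.051 and 0.116 without saline mouse 10, ketamine mouse 3 and ketamine mouse 5, respectively, and -0.20 without ketamine mouse 9. Of its longest transcript, 73.7% matches a stretch with no annotated gene at chr10:45595140-45595872 with 99.7% identity, so its count depends on how reads with several matches were treated.

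Of the superoxide dismutases, Sod1 (ENSMUSG00000022982, chr16:90220987-90226567, plus strand) encodes the cytosolic copper and zinc enzyme. It had 4130.5, 4030.3 and 4706 normalized counts after saline and 4429, 3708 and 5562 after ketamine. The ketamine mice held both the lowest and the highest value. The means were 4289 ± 364 and 4567 ± 934 (± SD, n = 3), and the log2 fold change was 0.074 (SE 0.174, limma adjusted p = 0.999). Without ketamine mouse 9 it was -0.078. The pseudogene Gm8566 matches 94.7% of the Sod1 transcript at 97.2% identity and had at most 2.87 normalized counts.

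Sod2 (ENSMUSG00000006818, chr17:13200705-13210985, plus strand), the manganese enzyme of the mitochondrial matrix, had 4820.2, 4484 and 3954 normalized counts after saline and 4886, 4423 and 3975 after ketamine. The values of the groups were nearly matched from the highest to the lowest, and saline mouse 10 and ketamine mouse 9 were the lowest of their groups. The means were 4419 ± 436 and 4428 ± 455 (± SD, n = 3). The log2 fold change was 0.002 (SE 0.141, limma adjusted p = 1), and the fold lay between 0.796 and 1.26 at 95% confidence. It was -0.075 without saline mouse 10 and -0.071 without ketamine mouse 3. Bases 2418 to 3824 of the Sod2 transcript also match the Mllt4 locus at 97.2% identity, in an alignment of 1424 positions. Mllt4 had at most 3747 normalized counts.

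Cat (ENSMUSG00000027187, chr2:103294006-103325317, minus strand), the peroxisomal enzyme that breaks down hydrogen peroxide, had 1164, 1089 and 1687 normalized counts after saline and 1181, 1195 and 1348 after ketamine. As for Gss, saline mouse 10 was the highest, and the ketamine mice lay between it and the other saline mice. The means were 1313 ± 326 and 1241 ± 92.5 (± SD, n = 3), with a log2 fold change of -0.056 (SE 0.188, limma adjusted p = 0.999). Without saline mouse 10 it was 0.14.

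Nfe2l2 (ENSMUSG00000015839, chr2:75513570-75542698, minus strand) had the largest difference of the members. Its normalized counts were 380.3, 381.2 and 598.5 after saline and 512.9, 464.7 and 663.5 after ketamine. The ketamine mice were above saline mice 1 and 6, but saline mouse 10 was above ketamine mice 3 and 5, so the groups overlapped. The means were 453.3 ± 126 and 547.1 ± 104 (± SD, n = 3), a ratio of 1.21, and the log2 fold change was 0.29 (SE 0.232, 95% interval -0.26 to 0.83, limma adjusted p = 0.999; exact permutation p = 0.3). Without saline mouse 10 the change was 0.51, with an unadjusted limma p of 0.0408, an adjusted p of 0.425 and a fold between 1.02 and 1.97. With both saline mouse 10 and ketamine mouse 9 left out, it was 0.36 with an adjusted p of 0.153. Without ketamine mouse 9 alone it was 0.14. Limma called none of the 3 genes with the promoter motif, Nfe2l2, Gclm and Sod1. It called 0 of all 16127 genes tested, so this says nothing about the motif.

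Per kilobase of exon, which allows a rough comparison of levels between genes, the members spanned a wide range of expression. The length used was that of all annotated exons of a gene merged. For some members the longest coding transcript is much shorter. It has 1963 bases against 5726 for Gss, 2475 against 3796 for Nfe2l2 and 995 against 1675 for Gpx4. The order below thus depends on this choice of length, and levels by transcript length were not computed. Sod1 was highest, with a mean of 6854 normalized counts per kilobase over the 6 mice (5741 to 8610, above 99.2% of the 16093 tested genes with a length). Gpx4 followed with 3593 (2965 to 4612, percentile 98.1), then Gpx1 with 1822 (1570 to 2568, percentile 95) and Sod2 with 1157 (1034 to 1278, percentile 91.4). None of these 4 ranges met the next one in the order. Gclc, at 500.2 (438.0 to 549.6), and Cat, at 488.8 (416.6 to 645.5), did not differ beyond their spread, and Gclc was the higher in 4 of 6 mice. Gclm at 332.5 (305.7 to 356.3) and Gsr at 286.3 (268.8 to 329.1) also had ranges that met, although Gclm was higher in 6 of 6 mice. The lowest levels were those of Nfe2l2, at 131.8 (100.2 to 174.8, percentile 45.5), and Gss, at 68.1 (55.1 to 105.5, percentile 32.2), whose ranges met, with Nfe2l2 higher in 6 of 6 mice. The superoxide dismutases and peroxidases were thus at higher levels than the genes of glutathione synthesis and reduction in every mouse.

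**Figure D3:**
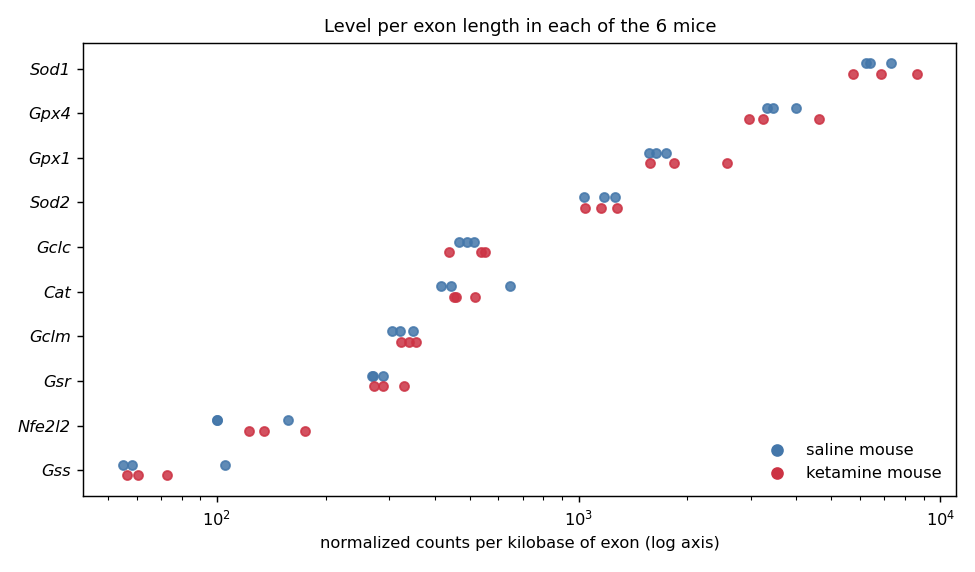
Normalized counts per kilobase of exon (horizontal log axis) for each member in the 3 saline mice (blue) and the 3 ketamine mice (red), ordered by mean level. The members ran from 68.1 for Gss to 6854 for Sod1 on average, and the colours overlap for each gene.

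The spread between mice followed particular libraries. Ketamine mouse 9 was the highest of the 6 libraries for 6 of the 10 members (Gclm, Gsr, Gpx1, Gpx4, Sod1 and Nfe2l2), while it was the highest for 29.4% of all genes tested. Relative to the saline mean, it stood at 0.64 on the log2 scale for Gpx1, 0.58 for Nfe2l2, 0.38 for Sod1 and 0.37 for Gpx4. Saline mouse 10 was the highest for Gss and Cat, at 0.60 and 0.39 (background 14.1%), and ketamine mouse 3 for Gclc and Sod2 (background 15.1%). Within the saline group, the coefficient of variation ran from 3.89% for Gsr to 38.8% for Gss, and within the ketamine group from 4.89% for Gclm to 25.9% for Gpx1.

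**Figure D4:**
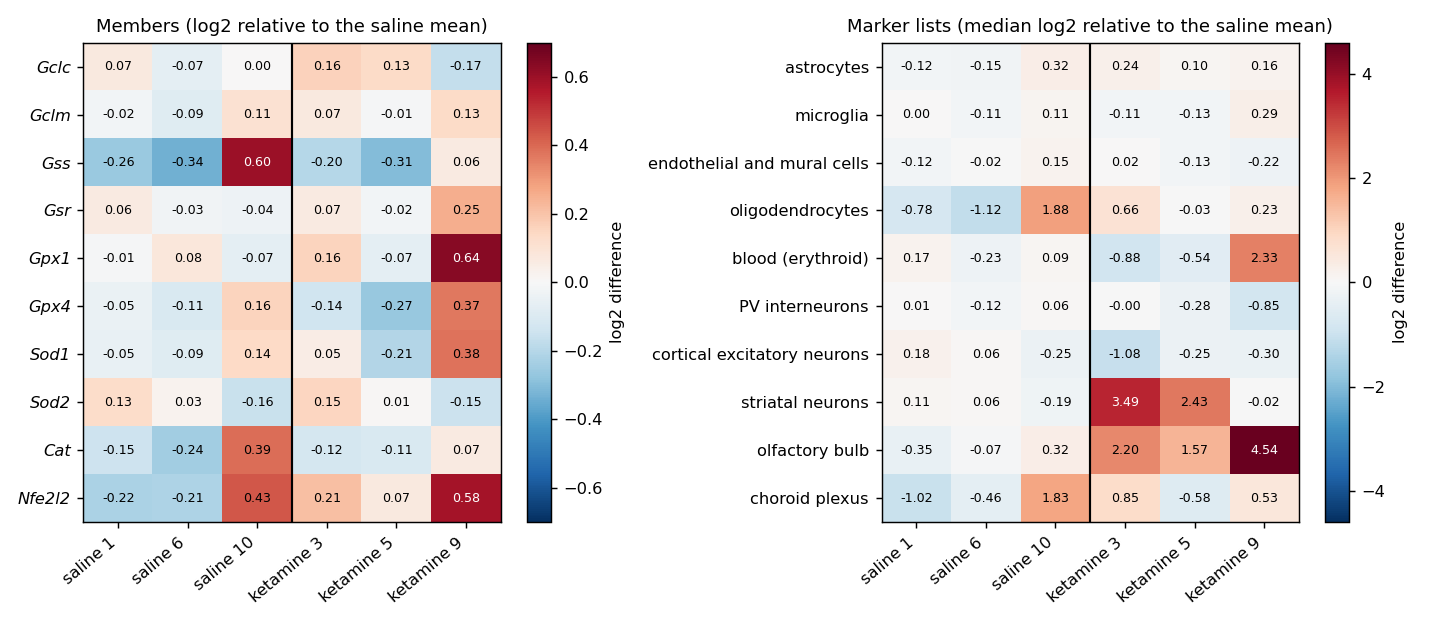
Log2 value relative to the saline mean in each mouse (columns, with a line between the groups), for the 10 members on the left and, as the median of the list, for 10 marker lists on the right, on colour scales of different range. Saline mouse 10 stands out for Gss, Nfe2l2 and Cat and for oligodendrocyte and choroid plexus markers, and ketamine mouse 9 for Gpx1, Nfe2l2, Sod1 and Gpx4 and for erythroid and olfactory bulb markers.

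Ratios within a library were computed for 3 pairs of members after their values had been seen, since a ratio is unaffected by the scaling of the library. Gclc to Gclm, the ratio of the ligase subunits, was 1.07, 1.02 and 0.938 after saline and 1.08, 1.11 and 0.819 after ketamine (exact permutation test, two-sided, p = 1). Sod1 to Sod2, the cytosolic to the mitochondrial enzyme, was 0.857, 0.899 and 1.19 after saline and 0.907, 0.839 and 1.40 after ketamine (exact permutation test, p = 0.8). It was highest in saline mouse 10 and ketamine mouse 9, 1 mouse of each group. Gpx1 to Gpx4 was 0.240, 0.267 and 0.199 after saline and 0.287, 0.268 and 0.282 after ketamine, and here the groups did not overlap, although saline mouse 6 and ketamine mouse 5 were nearly equal. The means were 0.235 ± 0.034 and 0.279 ± 0.010 (± SD, n = 3), and the exact permutation test gave p = 0.1, the smallest it can give, and 0.3 adjusted over the 3 ratios. The log2 difference of this ratio was 0.25 and ran from 0.14, without saline mouse 10, to 0.35, without saline mouse 6.

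Genes that work with the members were examined in 12 wider lists of 146 genes, of which 143 were found and 126 had a mean of at least 10 normalized counts. None of the 126 was called by limma, edgeR or DESeq2. Without adjustment, 6 of 126 (4.76%) had a limma p under 0.05, against 5.81% of all genes, and the groups of 8 of 126 (6.35%) did not overlap, against 10.3% of all genes. Their median log2 fold change was 0.026, with 69 positive and 57 negative, and 69.0% lay under 0.2. In each list the genes named below are the 2 with the smallest limma p.

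The supply of precursors included a pair of genes whose 3 ketamine values lay above the 3 saline values. Cth, cystathionine gamma-lyase, makes cysteine by transsulfuration and had 78.6, 78.2 and 91.2 normalized counts after saline and 112.6, 106.3 and 123.3 after ketamine, with a log2 fold change of 0.46 (SE 0.186, limma unadjusted p = 0.0416, adjusted p = 0.840). Slc1a3, the astrocytic glutamate transporter GLAST, had 16449, 15088 and 14556 after saline and 19559, 18816 and 18797 after ketamine, a log2 fold change of 0.31 (SE 0.132, unadjusted p = 0.0493, adjusted p = 0.860). Slc1a3 is also 1 of the 10 astrocyte markers, whose median log2 fold change was 0.17. Over the 8 genes of this list the median was -0.061, with 3 positive and 5 negative.

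In glutathione breakdown and export, 0 of 9 tested genes had an unadjusted p under 0.05, and the median log2 fold change was -0.078. The leading genes were Ggt7, of the gamma-glutamyltransferase family, at -0.24 (adjusted p = 0.999) and at -0.13 without ketamine mouse 3, and Ggct, which releases oxoproline from gamma-glutamyl dipeptides, at -0.18. Ggct was at -0.033 without saline mouse 10 and at -0.29 without saline mouse 6. The supply of NADPH, needed by Gsr, had 7 of 9 genes positive with a median of 0.12 and none past an unadjusted 0.05. Its leading genes were G6pdx, the entry enzyme of the pentose phosphate pathway, at 0.32 (SE 0.195), and Idh1, cytosolic isocitrate dehydrogenase, at 0.22 (SE 0.158), both with an adjusted p of 0.999. G6pdx was at 0.19 without either saline mouse 6 or ketamine mouse 3, and Idh1 at 0.35 without saline mouse 10.

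Of the other glutathione peroxidases, 3 of 6 were tested. Gpx3, the secreted peroxidase, had 150.4, 132.2 and 195.5 normalized counts after saline and 758.6, 218.3 and 301.8 after ketamine. All 3 ketamine mice were above the saline mice, with ketamine mouse 3 far above the rest. Its log2 fold change was 1.22 (SE 0.440, limma unadjusted p = 0.0266, adjusted p = 0.768) and was 0.70 without ketamine mouse 3. Ketamine mouse 3 also held the highest striatal sum, and the part of that tissue in Gpx3 was not tested. Gpx8, of the endoplasmic reticulum, had 82.8 to 253.8 normalized counts in ketamine mice and 91.0 to 115.3 in saline mice. Gpx8 was at 0.31 on the log2 scale, at -0.16 without ketamine mouse 9 and at 0.64 without ketamine mouse 5.

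The glutathione transferases and glutaredoxins had a median of 0.045 over 22 tested genes, 13 positive and 9 negative, with no unadjusted p under 0.05. The leading genes were Gstm6 at 0.95 (SE 0.480) and Mgst1, a microsomal transferase, at 0.89 (SE 0.468), and Mgst1 was at 0.35 without ketamine mouse 9. Gstm6 was at 1.47 without saline mouse 10 and at 0.62 without saline mouse 1. The peroxiredoxins and thioredoxins, which reduce peroxides through thioredoxin in place of glutathione, had a median of 0.096 over 14 genes, 9 positive and 5 negative. Txnrd1, cytosolic thioredoxin reductase, was at 0.21 (SE 0.126), and Prdx3, the mitochondrial peroxiredoxin, at 0.24 (SE 0.17). Prdx3 was at 0.093 without ketamine mouse 9 and at 0.39 without ketamine mouse 5. The superoxide dismutase partners and metallothioneins had a median of 0.11 over 6 genes. Sod3, the extracellular dismutase, was at 0.28 (SE 0.213), and Mt2, a metallothionein, at 0.16 (SE 0.378). Without ketamine mouse 9, Sod3 was at 0.055 and Mt2 at -0.21, and Sod3 was at 0.42 without ketamine mouse 5. Mt2 was at 0.48 without saline mouse 10, at 0.36 without ketamine mouse 3, at 0.33 without ketamine mouse 5, and at -0.005 and -0.001 without saline mice 1 and 6. In ketamine mouse 9 the median log2 value relative to the saline mean was 0.58 for the peroxiredoxin list, 0.43 for the transferase list and 0.73 for the metallothionein list, beside 0.19 for the 10 members and 0.002 for all genes tested, while in ketamine mice 3 and 5 the same 3 lists lay between -0.24 and -0.052.

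Among regulators of the NRF2 pathway, Bach1, a repressor at antioxidant response elements, had 369.8, 304.0 and 471.1 normalized counts after saline and 562.9, 480.7 and 471.4 after ketamine, so that the groups were barely separate. Its log2 fold change was 0.42 (SE 0.193, limma unadjusted p = 0.0641, adjusted p = 0.896), and it was 0.27 without saline mouse 6. Bach2, a related repressor, was at -0.25 (SE 0.222), at -0.029 without ketamine mouse 9 and at -0.42 without ketamine mouse 5. Of 10 NRF2 targets outside glutathione metabolism, 3 were positive and 7 negative, with a median of -0.040. Aldh3a1, an aldehyde dehydrogenase of very low abundance here, had 20.1, 35.7 and 37.3 after saline and 7.83, 18.8 and 11.8 after ketamine, with a log2 fold change of -1.24 (SE 0.433, unadjusted p = 0.0231, adjusted p = 0.738). Nqo1, a quinone reductase and a widely used reporter of NRF2 activity, had 79.5, 72.4 and 114.2 after saline and 112.6, 97.8 and 142.3 after ketamine, with a log2 fold change of 0.41 (SE 0.254, adjusted p = 0.999). As for Nfe2l2, saline mouse 10 overlapped the ketamine mice for Nqo1, and the change without it was 0.61. Without ketamine mouse 9 it was 0.27.

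In the selenoprotein list, on which Gpx1 and Gpx4 depend for selenocysteine, Pstk had 499.1, 541.4 and 518.3 normalized counts after saline and 398.4, 401.7 and 452.3 after ketamine. Pstk, the kinase that prepares the transfer RNA for selenocysteine, was lower in all 3 ketamine mice, with a log2 fold change of -0.32 (SE 0.132, limma unadjusted p = 0.0468, adjusted p = 0.851). Sepw1, selenoprotein W, was at -0.21 (SE 0.163), at -0.11 without ketamine mouse 3 and at -0.34 without ketamine mouse 9, and the list's median was -0.010 over 11 genes. Among sources of superoxide and other reactive species, the leading genes were Nos1, neuronal nitric oxide synthase, at 0.43 (SE 0.316), and Maoa, monoamine oxidase A, at 0.14 (SE 0.129). Nos1 had 1222, 1199.6 and 1363 after saline and 2337, 2120.5 and 983 after ketamine, with mouse 9 below all others. Its log2 fold change was 0.82 without ketamine mouse 9, 0.20 without ketamine mouse 3 and 0.27 without ketamine mouse 5, and that of Maoa was 0.068 without ketamine mouse 3 and 0.22 without ketamine mouse 5. With saline mouse 10 and ketamine mouse 9 both left out, Nos1 was called at 0.88 (SE 0.1, limma adjusted p = 0.0132). It was 1 of 587 genes called among 16127 in that setting, which was chosen after values had been seen. Nos1 was called in no other setting. The 2 ketamine mice that remained were those with the high striatal sums, whose part in this value was not tested.

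In the ferroptosis and lipid peroxide list, Aifm2, which encodes the ubiquinone reductase FSP1, had 188.7, 180.5 and 214.1 normalized counts after saline and 304.4, 236.1 and 240.2 after ketamine. Its log2 fold change was 0.41 (SE 0.174, limma unadjusted p = 0.0487, adjusted p = 0.856). Tfrc, the transferrin receptor, had 5852, 5714 and 4999.9 after saline and 4138, 4898 and 4645 after ketamine, a log2 fold change of -0.28 (SE 0.133, adjusted p = 0.923). Both genes had groups that did not overlap, and neither passed the adjusted threshold. The median of the 9 tested genes was -0.009.

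**Figure D5:**
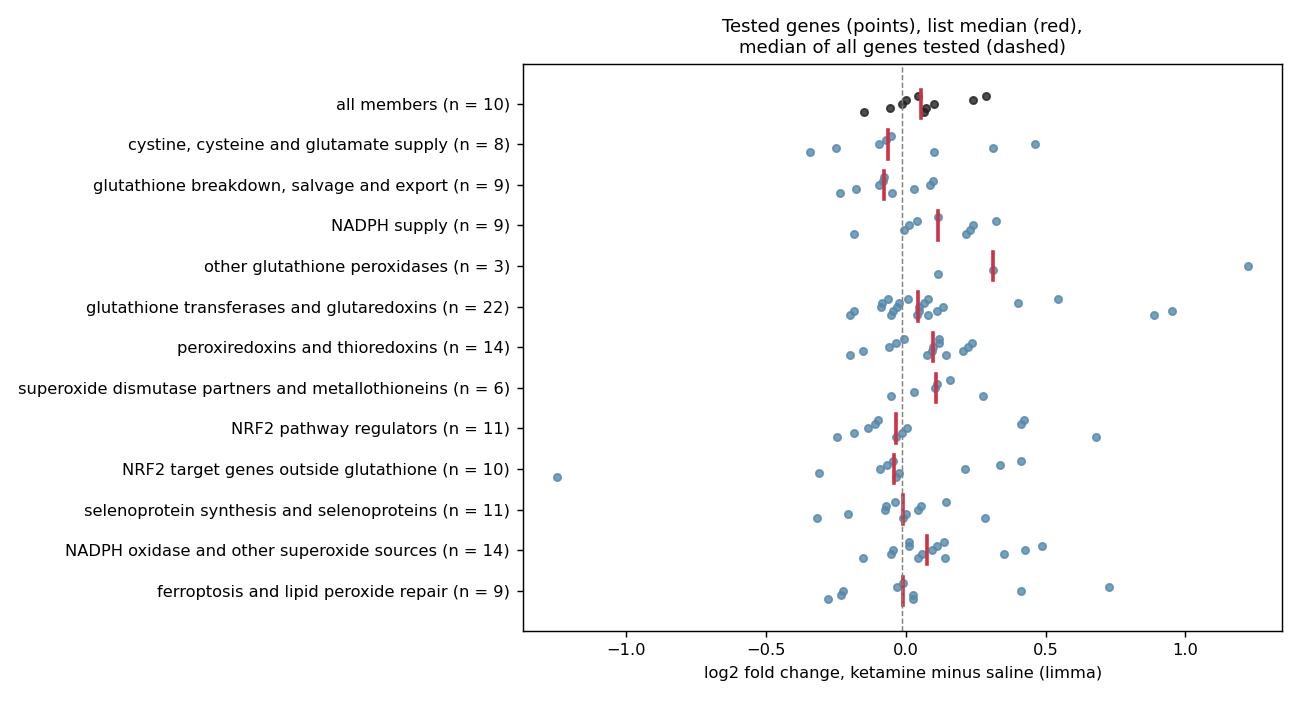
Log2 fold change, ketamine minus saline (horizontal axis), of the members (black) and of the tested genes of the 12 wider lists (blue), with the median of each list in red and the median of all genes tested as a dashed line. The 3 other glutathione peroxidases have a median of 0.31, and the medians of the other 11 wider lists lie between -0.078 and 0.12.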

How the data were processed

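RNA from the PLc of 3 saline and 3 ketamine mice was sequenced as paired-end reads. Per the submitters' processing notes, CASAVA, TopHat2 2.0.11, HTSeq and DESeq2 were used, with mm9; the annotation and the strand setting are not given in the sources used here. Each deposited value is a signal: a read count that the authors scaled by its library's size factor. All libraries held whole multiples of 1 step in 100.0% of values (tolerance 0.0051 normalized counts). The whole reads obtained by dividing by that step were used for edgeR 4.0.16, DESeq2 1.42.0 and other scalings.

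Log2(normalized count + 1) was compared with limma 3.58.1 (R 4.3.3), whose prior variance followed a trend. Genes averaging at least 10 normalized counts were kept, 16127 in all. Two-sided p-values received a Benjamini-Hochberg adjustment over all genes tested, with a threshold of 0.05. Exact permutation tests used mean log2 values. Coordinates are from GENCODE M1 on mm9, and near copies are matches of at least 200 bases at 90% identity or more. The scripts were checked on simulated data. Alternatives were pseudocounts of 0.1 and 5, no filter and a filter of 100, recomputed size factors, TMM and upper-quartile scaling, no trend, edgeR, DESeq2, each mouse left out and ketamine mice 3 and 5 left out.

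The members and lists were chosen with earlier results of these data known. Named genes are the 10 members and, in each wider list, the 2 with the smallest limma p, and any other gene is named only for a near copy or shared bases. The ratios, the motif search and leaving out saline mouse 10 with ketamine mouse 9 were chosen after values had been seen. Nothing in the labels beyond mouse numbers shows how mice were housed or processed, so p-values measure the spread between these mice.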

Additional observations from a re-analysis of the deposited data

How the results depend on the processing

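Under 18 alternatives, 0 of 10 members were called in any. Of 180 member values, 158 kept their sign and 22, in 6 members, changed it. Gclm, Gsr, Gpx1 and Nfe2l2 stayed positive throughout. With 1 mouse left out, the log2 fold change ran from -0.016 to 0.147 for Gclc, -0.32 to 0.15 for Gss, -0.20 to 0.12 for Gpx4, -0.078 to 0.21 for Sod1, -0.075 to 0.078 for Sod2 and -0.18 to 0.14 for Cat. Gpx4 was 0.0030 with TMM scaling, 0.028 with edgeR and 0.016 with DESeq2. With ketamine mice 3 and 5 left out, so that the lone ketamine mouse is assumed to vary like the saline mice, the change was -0.17 for Gclc, 0.063 for Gss, 0.37 for Gpx4, -0.15 for Sod2 and 0.065 for Cat, the members' median was 0.19 and 7 of 10 did not overlap. With saline mouse 10 and ketamine mouse 9 left out, it was 0.046 for Gss, -0.0096 for Sod1, -0.00023 for Sod2 and 0.078 for Cat. In that setting 587 of all genes were called (460 higher), and 1 gene of the wider lists, Nos1. DESeq2 called 182 of all genes (145 higher), against 0 by limma and edgeR, which had 937 and 1007 genes at an unadjusted p under 0.05. With 1 mouse left out, limma called between 0 and 1 gene. In some settings with mice left out, members had groups that did not overlap. Fewer mice make separate groups likelier by construction, and the share over all genes was not computed for these settings. Other causes were not tested. No paired analysis was possible because the mouse numbers differ between the groups. With 3 mice a group, the 95% intervals of Gss, Gpx1 and Nfe2l2 reach past 1.5-fold, so changes of that size could not be told from none.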
